A study of Mus musculus with 7 samples.

Results

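The cyclins, kinases and kinase inhibitors that govern the G1 phase of the cell cycle were followed from erythroid progenitors to erythroblasts of the mouse fetal liver. The members were 8 genes chosen by name: the D-type cyclin genes Ccnd2 and Ccnd3, the kinase genes Cdk2, Cdk4 and Cdk6, and the inhibitor genes Cdkn1b, Cdkn2c and Cdkn2d. Of these, 7 had coding exons in the deposited expression table, out of 5194 genes listed there in all, and Cdk6 was not analysed here. The cells came from embryos at stage E13.5 that carried a hemagglutinin-tagged Klf1, in both groups alike, and no treatment was given. Klf1 encodes EKLF, a zinc finger transcription factor of red cell precursors, and the tag served to pull down EKLF with its bound DNA. Progenitors lacked the red cell antigen Ter119 and were taken with and without CD71, the transferrin receptor, so this group joins 2 sorted fractions. Erythroblasts carried both antigens. The study held 7 libraries: 3 of RNA, of which 2 came from erythroblasts, 2 of immunoprecipitated chromatin and 2 of input chromatin. Each population came from at least 3 sorts, and values were deposited as 1 RNA column and 1 pooled peak list for each stage.

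D-type cyclins pair with CDK4 or CDK6 and start the phosphorylation of the retinoblastoma protein, which releases E2F factors to switch on S phase genes. Cyclin E with CDK2 completes this step. INK4 inhibitors, among them the products of Cdkn2c (p18) and Cdkn2d (p19), bind CDK4 and CDK6, while p27, the product of Cdkn1b, binds cyclin-CDK complexes and restrains CDK2 above all. Red cell precursors divide a limited number of times as they mature and then leave the cell cycle, and cyclin D3 is known for setting how many divisions they make.

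The RNA values are a coverage signal per coding exon that has not been divided by exon length, so a gene is compared with itself between stages and not with other genes. A gene's level is the sum over its listed exons. A difference is log2((erythroblasts + 1) / (progenitors + 1)), and a gene is called higher or lower where that difference reaches 2-fold. With 1 column per stage no difference has a replicate check and none was tested. An exon was in the table only if it had at least 0.8 in both columns, so a gene silent in either stage was not analysed here. The sort marker gene Tfrc (CD71) went from 21.3 to 148, Gata1, the erythroid master regulator, from 42.1 to 2845, and Klf1 from 73.9 to 145. The erythroid marker list had 8 genes, of which 5 were in the table and 3 were called higher. Klf1 and the erythropoietin receptor gene Epor, which went from 58.2 to 70.5, did not reach the rule. Of 19 markers of macrophages, hepatocytes, megakaryocytes, granulocytes and mast cells, B cells and endothelium, 1 was in the table, the megakaryocyte gene Gp1ba, which went from 9.35 to 31.6, and its part in the results was not tested. In sorted bulk cells, fewer cells that express a gene and less RNA per cell cannot be told apart.

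Promoter sequences are shown for Ccnd3, Cdkn1b, Cdkn2c and Cdkn2d. Each of these genes had a higher signal in erythroblasts and an EKLF peak over or beside its listed exon nearest the 5' end. For Cdkn2d the only listed exon is the coding exon nearest the 3' end, so a peak beside it need not lie near the promoter. Each run is the 250 bases before a transcript start in RefSeq, 5' to 3' on the gene's strand, in build GRCm38.p6. RefSeq's promoter table matched 7 of the 8 members, all but Ccnd2. Capitals mark matches to CCNCNCCC on either strand, a broad form of the CACCC-type box that EKLF and other Kruppel-like factors read. This pattern includes many GC boxes read by Sp factors, and neighbouring matches may overlap.
Ccnd3, first start (chr17:47504801-47505050, plus strand): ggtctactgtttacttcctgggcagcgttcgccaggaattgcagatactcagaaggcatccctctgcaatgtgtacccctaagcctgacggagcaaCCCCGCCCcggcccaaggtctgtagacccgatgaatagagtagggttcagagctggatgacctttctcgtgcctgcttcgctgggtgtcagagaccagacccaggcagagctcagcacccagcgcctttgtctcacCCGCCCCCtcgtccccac
Ccnd3, second start (chr17:47593217-47593466, plus strand): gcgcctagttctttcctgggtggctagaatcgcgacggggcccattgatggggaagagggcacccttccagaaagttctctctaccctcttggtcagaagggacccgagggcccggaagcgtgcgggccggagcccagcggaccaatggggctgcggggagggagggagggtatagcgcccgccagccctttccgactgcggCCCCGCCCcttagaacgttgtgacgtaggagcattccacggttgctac
Cdkn1b (chr6:134920151-134920400, plus strand): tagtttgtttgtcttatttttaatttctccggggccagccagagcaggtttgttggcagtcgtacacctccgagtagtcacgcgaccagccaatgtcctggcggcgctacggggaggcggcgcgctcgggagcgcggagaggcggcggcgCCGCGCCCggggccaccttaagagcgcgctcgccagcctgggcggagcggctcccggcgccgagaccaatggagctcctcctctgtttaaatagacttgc
Cdkn2c, first start (chr4:109666757-109667006, minus strand): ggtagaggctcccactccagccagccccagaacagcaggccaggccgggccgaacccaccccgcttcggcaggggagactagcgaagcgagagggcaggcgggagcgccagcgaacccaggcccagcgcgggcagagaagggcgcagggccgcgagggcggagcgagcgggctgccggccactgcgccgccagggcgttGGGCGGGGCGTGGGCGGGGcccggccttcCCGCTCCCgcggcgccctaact
Cdkn2c, second start (chr4:109665373-109665622, minus strand): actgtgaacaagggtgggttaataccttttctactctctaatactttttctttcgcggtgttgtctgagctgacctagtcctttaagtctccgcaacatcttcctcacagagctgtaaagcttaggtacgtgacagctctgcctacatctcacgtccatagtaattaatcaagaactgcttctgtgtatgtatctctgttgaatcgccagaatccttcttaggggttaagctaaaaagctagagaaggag
Cdkn2d (chr9:21291210-21291459, minus strand): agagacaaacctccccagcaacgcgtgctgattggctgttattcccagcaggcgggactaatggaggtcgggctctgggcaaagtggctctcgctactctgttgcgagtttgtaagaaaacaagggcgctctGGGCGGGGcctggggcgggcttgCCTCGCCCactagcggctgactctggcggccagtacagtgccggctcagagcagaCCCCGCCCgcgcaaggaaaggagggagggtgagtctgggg
The first Cdkn2c start had 4 matches, 3 of them on the strand opposite to the run shown. The nearest ended 14 bases before the start. Cdkn2d had 3. The first Ccnd3 start had 2 matches, and the second start and Cdkn1b had 1 each. Cdk2 and Cdk4, whose promoters are not shown, had 4 each, and both genes had less signal in erythroblasts. Of the 9 promoters matched for the members 8 held the pattern, and the one without it was that of the second Cdkn2c start. Over all 32851 RefSeq promoters of the same length 45.9% held it. The share of G and C was 59.6% to 77.2% in the 8 with the pattern and 42.8% in the one without. Its part in the matches was not tested. The peaks are in build mm9, so these runs were not placed on them, and a match is only a description of the letters. The runs before the Ccnd3 starts end at 47505050 and 47593466. The peak over the first listed Ccnd3 exon was 1991 bp wide in progenitors and 2198 bp in erythroblasts. It cannot lie beside both starts, so at least 1 Ccnd3 run, possibly the first with its 2 matches, is far from it. Which start is nearer to the peak was not tested.

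The D-type cyclins went opposite ways. Ccnd2, on the minus strand of chromosome 6, had 143 in progenitors and 16.1 in erythroblasts. Its log2 difference of -3.08 was the 19th lowest of the 5194 genes. Ccnd3, on the plus strand of chromosome 17, had 124 in progenitors against 407 in erythroblasts, and its log2 difference was 1.70. The ratio of Ccnd3 to Ccnd2 signal went from 0.866 to 25.2, a 29.1-fold change that does not depend on exon length or on how the columns are scaled. Because lengths were not divided out, a ratio near 1 in progenitors does not mean equal numbers of transcripts.

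The 3 listed exons of Ccnd2 all had less signal in erythroblasts. The exon nearest the 5' end (chr6:127100600, mm9) had 23.7 in progenitors and 4.18 in erythroblasts. Of the listed exons the middle one (127098682) had 67.5 and 8.58, and that nearest the 3' end (127096041) had 52.3 and 3.36. The progenitor value was 5.67 times, 7.87 times and 15.6 times the erythroblast value in that order, so the gap widened over these 3 exons. They carry the exon numbers 4, 3 and 2, which rise with chromosome position. Lower-numbered exons, nearer the 3' end, were not listed, so neither the sum nor the trend covers the whole transcript. Of the 628 genes with 3 listed exons 0.478% had every exon at least 5-fold lower, as Ccnd2 did. This 5-fold limit is not the 2-fold rule and lies just below the smallest Ccnd2 ratio of 5.67. The share therefore describes Ccnd2 and tests nothing.

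All 5 listed exons of Ccnd3 had more signal in erythroblasts. From 5' to 3' their values were 20.03 and 52.6 (chr17:47730604), 53.5 and 165 (47731683), 18.7 and 61.7 (47734369), 9.77 and 32.4 (47734952), and 22.3 and 95.2 (47735558) in progenitors and erythroblasts. These exons are shared by the 3 listed transcripts of the gene, so the values do not separate its isoforms. The erythroblast value was between 2.63 and 4.28 times the progenitor value, and the factor grew from each listed exon to the next, 5' to 3'. The exon log2 ratios, taken with 0.1 added, had an SD of 0.25, against 0.74 in Ccnd2. Of the 361 genes with 5 listed exons 5.54% had every exon at least 2-fold higher. Over the 15 pairings of a Ccnd3 exon with a Ccnd2 exon the relative change ran from 14.9-fold to 66.5-fold. These pairings reuse the exon values given above, so the range describes their spread and adds no further support.

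**Figure D1:**
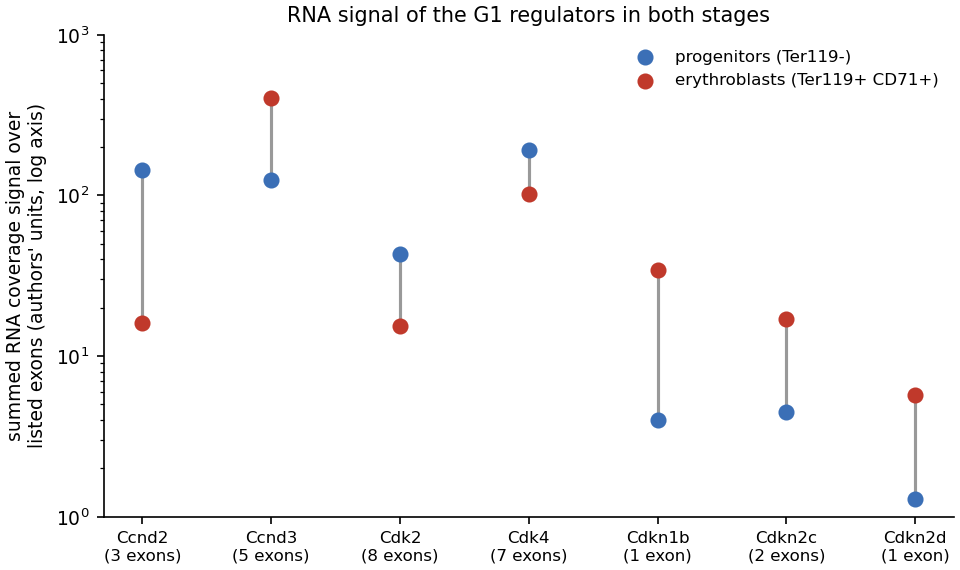
RNA coverage signal summed over the listed exons of each member (vertical log axis, authors' units) in progenitors (blue) and erythroblasts (red), with a grey line joining the values of a gene; each point is 1 deposited value, so there are no error bars. Ccnd2 drops from 143 to 16.1 while Ccnd3 climbs from 124 to 407, both kinase genes have smaller values in erythroblasts, and the 3 inhibitor genes larger ones; heights of different genes are not comparable.

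Both listed kinase genes had less signal in erythroblasts, and 1 of them reached 2-fold. Cdk4, the main partner of D-type cyclins beside Cdk6, had 191 in progenitors against 103 in erythroblasts. Its log2 difference, -0.89, did not reach the rule. All 7 of its exons had less signal in erythroblasts. From 5' to 3' they had 35.3 and 27.3 (chr10:126501292), 26.04 and 21.6 (126501641), 30.8 and 15.2 (126501891), 22.4 and 6.21 (126502211), 8.42 and 2.69 (126503009), 21.2 and 12.8 (126503157), and 46.4 and 16.8 (126503985). The progenitor value exceeded the erythroblast value by as little as 1.21-fold near the 5' end and by as much as 3.61-fold in the middle. The median of the exon log2 ratios, -1.02, would pass the rule. Of the 1677 genes with at least 5 listed exons 10.4% were lower in every exon.

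Cdk2, the partner of cyclins E and A, had 43.4 in progenitors against 15.3 in erythroblasts, so that its log2 difference was -1.45. Its 8 exons did not move together. The 2 exons nearest the 3' end (chr10:128136162 and 128136528) had 14.07 and 14.00 in progenitors against 2.10 and 2.59 in erythroblasts. These 2 exons held 64.6% of the gene's progenitor signal and 30.6% of its erythroblast signal. Together the other 6 exons had 15.4 in progenitors and 10.6 in erythroblasts, a 1.45-fold gap, against 5.99-fold for the 2 at the 3' end. Without those 2 exons, an alternative chosen after seeing the data, the log2 difference was -0.49 and the call was lost, and the exon median was -0.66. The exon at 128137032, found in 1 of the 2 listed Cdk2 transcripts, had 1.12 and 1.11. The exon at 128140763 was higher in erythroblasts, with 1.37 and 1.74.

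All 3 listed inhibitor genes were called higher in erythroblasts. Cdkn1b (p27) had 3.99 in progenitors and 34.4 in erythroblasts, an 8.62-fold ratio and a log2 difference of 2.83, the 55th highest of the 5194 genes. This rests on 1 listed exon, its first coding exon (chr6:134870938, plus strand). Cdkn2c (p18) had 4.51 and 17.0, a log2 difference of 1.71. Both listed exons were higher. The one nearer the 5' end (chr4:109337623, minus strand) had 1.21 and 3.72, and the other (109333854) had 3.30 and 13.3. Cdkn2d (p19) had 1.28 and 5.69 on its single listed exon (chr9:21093417, minus strand), a log2 difference of 1.55. By its exon number, 0, this is the coding exon nearest the 3' end.

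The inhibitor values in progenitors were low, close to the table's minimum of 0.8 in the case of Cdkn2d. Every value was a whole multiple of a fixed step, and the progenitor value of Cdkn2d stood for 2356 steps, that of Cdkn1b for 7328 and that of Cdkn2c for 8277. If a step is 1 sequenced base, these correspond to 46.2, 144 and 162 reads of 51 bases. The signal of Ccnd2 stood for 263227 steps in progenitors and 34657 in erythroblasts. With a pseudocount of 5 the log2 difference of Cdkn2d dropped to 0.77, under the rule.

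Set against the kinase genes, each inhibitor gene gained signal. The ratio of Cdkn1b to Cdk2 signal changed 24.5-fold, with the 2 exons at the 3' end of Cdk2 included, and that of Cdkn1b to Cdk4 16.0-fold. The ratio to Cdk4 changed 6.99-fold for Cdkn2c and 8.22-fold for Cdkn2d. Ccnd3 gained 6.07-fold on Cdk4, its kinase partner, whereas the ratio of Cdk4 to Ccnd2 rose 4.80-fold. In all, 4 of the 7 listed members were called higher, against 15.3% of all 5194 genes, and 2 were called lower, against 13.2%. The median difference was 1.55 over the members and 0.03 over all genes. The members were named with earlier results of these data in view, so these counts describe them and test nothing.

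**Figure D2:**
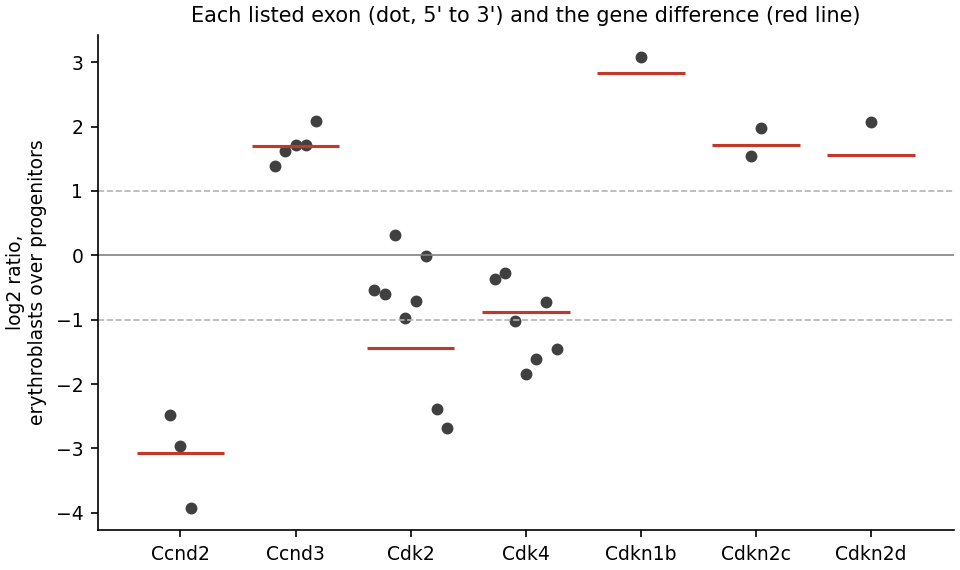
Log2 ratio of erythroblasts over progenitors (vertical axis, 0.1 added to each exon value) for every listed exon of each member, ordered 5' to 3' within a gene (dots), with the difference of the gene sum as a red line and the 2-fold rule as dashed lines. Every Ccnd3 exon lies above the upper dashed line and every Ccnd2 exon below the lower one, while the 2 exons of Cdk2 at its 3' end lie far below its other 6.

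Some of these genes overlap others in the RefSeq annotation of GRCm38.p6, and use of strand in the counting was not given in the sources used here. Ccnd3 overlaps Bysl, which had 19.5 and 27.5 in this table, and Gm41590. Cdk4 overlaps Tspan31, which had 1.34 and 1.12. Cdk2 overlaps Pmel and Ccnd2 overlaps 9330179D12Rik, and neither of those was in the table. Reads from overlapping stretches cannot be told apart, and their part in the differences was not tested. No overlap was found for Cdkn1b, Cdkn2c or Cdkn2d.

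Genes with the nearest difference were sought for 4 members among genes with at least as many listed exons and at least 5 in the higher stage, with likeness measured as the gap in log2 difference over the 2 stages. Those nearest to Ccnd2 were Ndst2 (-3.05), Macroh2a1 (-3.15) and Tcf3 (-2.92). Those nearest to Ccnd3 were Epn1 (1.71), Ndufv2 (1.71) and Cyth2 (1.71). Cdkn1b lay near Acp5 (2.82) and Tbc1d24 (2.80), and Cdkn2c nearest to Epn1, Tmem256 (1.70) and Ndufv2. With only 2 values per gene many genes lie this close, and nothing further is read from these names.

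The other genes of the G1 to S step were taken from 5 lists with 52 symbols, of which 35 were in the table. Among these 11 were called higher, 3 lower and 21 neither, with a median of 0.29. These are 31.4% higher and 8.57% lower, against 15.3% and 13.2% of all genes, and the counts for single lists rest on at most 11 genes each. Among cyclins, kinases and their activators 3 of 9 were higher and 1 lower. Ccne1, a cyclin of CDK2, went from 9.78 to 58.5 with all 4 exons higher, and Ccne2 from 1.15 to 3.8 on 1 exon. The CDK-activating phosphatase gene Cdc25b went from 0.943 to 7.18 on 1 exon. Cdk7, the kinase that activates other CDKs, was lower, with 19.6 and 3.99. The cyclin A gene Ccna2 had 93.6 and 114, and Cdk1 had 64.2 and 47.4, both under the rule. Ccne1 was thus called higher, whereas the summed exons of its kinase gene Cdk2 were called lower.

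Of 5 further CDK inhibitor genes 1 was in the table, Cdkn3, a phosphatase that acts on CDK2, which went from 1.17 to 10.1 on 1 exon. Of 10 listed E2F and pocket protein genes 2 were higher and 1 lower, shares close to those of all genes. The repressor-type factor gene E2f8 went from 68.9 to 156 with all 8 exons higher, and the dimerization partner gene Tfdp2 from 2.13 to 6.02. The other partner gene, Tfdp1, was lower, with 119 and 50.8 and all 7 exons lower. E2f4 had 143 and 94.1, under the rule, though 6 of its 9 exons were higher in erythroblasts.

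Among 11 listed genes for the turnover of cyclins and inhibitors 4 were higher and 1 lower. Ubac1, a subunit of a ubiquitin ligase for p27, went from 9.90 to 25.6 with all 5 exons higher, and the cullin gene Cul4a from 48.0 to 107 with 11 of 12 exons higher. Fbxw7, which encodes the F-box protein that targets cyclin E, went from 0.874 to 7.40 and Skp1 from 0.888 to 4.49, each on 1 exon. Cks2, a small CDK-binding subunit, was lower, with 16.6 and 7.18 on 1 exon. Ddb1, the best covered gene of these lists, had 471 and 551, under the rule. Of 4 partners and modulators of D-type cyclins 1 was higher, Ccndbp1, a cyclin D-binding protein gene, from 2.25 to 7.06.

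**Figure D3:**
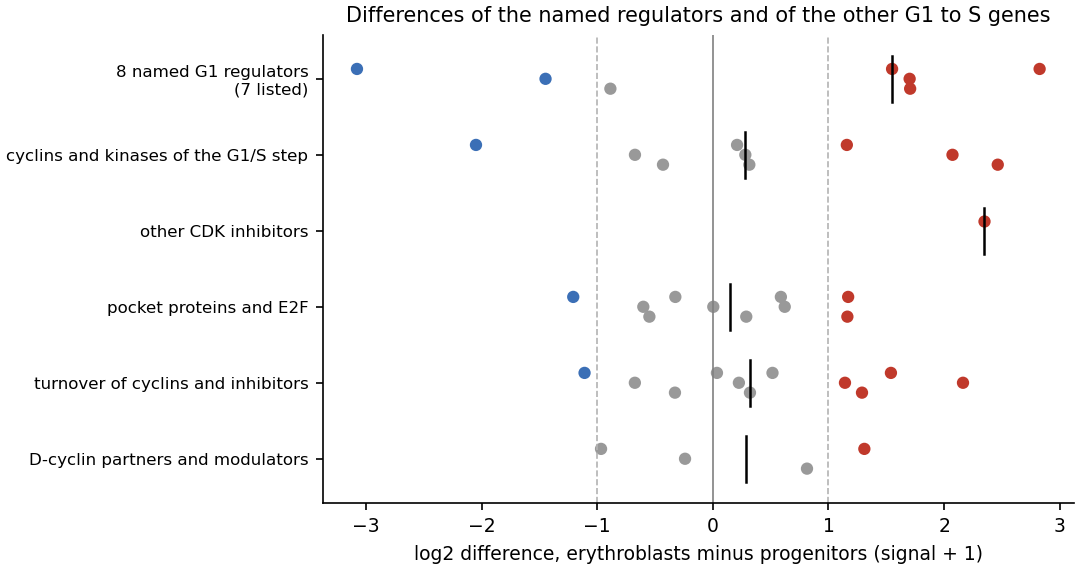
Log2 difference between erythroblasts and progenitors (horizontal axis, 1 added to each summed signal) for the 7 listed members and for the other G1 to S genes by list; each dot is a gene, red where at least 2-fold higher, blue where at least 2-fold lower and grey otherwise, and black bars are list medians. The members' median of 1.55 lies to the right of the medians of the 4 lists with more than 1 gene, which run from 0.15 to 0.32.

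EKLF peaks were examined within 50 kb of the listed exon positions of each member. Enrichment is the authors' fold value per peak and is read within 1 list only, against a list median of 7.03 in progenitors and 9.31 in erythroblasts. All 7 listed members had a peak in each list. Of all genes 70.1% had a progenitor peak in this window and 88.0% an erythroblast peak, so having one says little about the members. The windows held 14 progenitor and 21 erythroblast peaks, on average 2 and 3 per member against 1.17 and 2.15 over all genes. Of the progenitor peaks 12 shared at least 1 bp with an erythroblast peak (85.7%, against 80.9% of the whole list). Of the erythroblast peaks 12 overlapped a progenitor peak (57.1%, against 30.9%). Among all erythroblast peaks within 50 kb of any listed exon 45.4% did so. Within 5 kb 6 of the 7 members had a progenitor peak, all but Ccnd2, against 30.7% of all genes, and 6 had an erythroblast peak, all but Cdk4, against 45.9%. A progenitor peak covered a listed exon position of 4 members, against 15.4% of all genes, and an erythroblast peak that of 3, against 23.4%. The nearest listed exon belonged to another gene for 4 of the progenitor and 6 of the erythroblast peaks.

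At Ccnd2, which was lower in erythroblasts, the peak inside the gene was in the erythroblast list alone. It lay between listed exon positions at chr6:127099029-127100247 (mm9 throughout), 347 bp from the nearest one, with an enrichment of 8.23 that was below the list median. It ranked 15594 of 19353 by -log10 p, whereas the whole progenitor list held 7358 peaks. The other Ccnd2 peak lay 46.6 kb and 46.3 kb from the exons in the progenitor and erythroblast lists, on the 3' side, with enrichments of 6.64 and 9.09. No progenitor peak lay closer.

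At Ccnd3 a shared peak covered the position of the first listed coding exon in progenitors and those of the first and second in erythroblasts. It ran over chr17:47729645-47731635 in progenitors with an enrichment of 7.57 and over chr17:47729760-47731957 in erythroblasts with 12.6, both above the median of their list. A second erythroblast peak, at chr17:47733631-47736499, covered the 3 listed exons nearest the 3' end with an enrichment of 10.8, and no progenitor peak overlapped it. Both lists also had a peak beyond the gene that lay nearer to Med20, 30.3 kb from Ccnd3 exons in erythroblasts. A further erythroblast peak covered an exon of Bysl.

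At the kinase genes the peak over the first listed exon had an enrichment under the list median wherever one was called. Cdk4 had such a peak in progenitors alone, at chr10:126499995-126501671, with an enrichment of 4.17. It ranked low in its list by -log10 p, 5908 of 7358. A progenitor-only peak was present within 50 kb of 15.5% of all genes. No erythroblast peak lay closer to Cdk4 than one 32.6 kb away that was nearest to Tsfm, so Cdk4 had a close peak in progenitors only. Cdk2 had a shared peak over its first listed exon, with enrichments of 5.96 in progenitors and 9.09 in erythroblasts. Downstream of the last Cdk2 exon a shared peak had 6.23 in progenitors, ranked 7108 of 7358, and 22.3 in erythroblasts (chr10:128132611-128133809), ranked 2137 of 19353.

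The inhibitor genes had the highest enrichments among the members in the erythroblast list, together with that downstream of Cdk2. Cdkn2c had 2 shared peaks, both on the 5' side of its listed exon positions. Exon ends were not available, so whether the nearer peak overlaps an exon was not tested. The erythroblast peak at chr4:109337665-109340142, which began 42 bp from the position of the exon nearest the 5' end, had an enrichment of 17.4 and a -log10 p that ranked 545. The one at chr4:109348609-109350428, 11.0 kb away, had 27.3 and ranked 637, so both were in the highest-ranked 3.29% of 19353. The overlapping progenitor peaks had 5.63 and 7.93 and ranked 3442 and 1767 of 7358.

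Cdkn1b had 5 erythroblast peaks and 1 progenitor peak within 50 kb, and for all of them it was the nearest listed gene. The shared peak covered its listed exon, at chr6:134869366-134871628 with an enrichment of 6.0 in progenitors and at chr6:134869614-134871813 with 7.57 in erythroblasts, both under their list's median. The 4 erythroblast-only peaks lay 22 kb upstream and 5.57, 7.14 and 10.2 kb downstream, and the highest enrichment was 20.7, at chr6:134878079-134879595. By -log10 p the upstream one, with an enrichment of 9.93, ranked higher (3213 against 3314). Those 5.57 and 10.2 kb downstream ranked 14701 and 16759 of 19353, beyond the 7358 peaks that the whole progenitor list held. An erythroblast-only peak was present near 65.3% of all genes. Cdkn2d had shared peaks on either side of its listed exon position. In erythroblasts they lay 192 bp away on the 3' side and 1.17 kb away on the 5' side. Their enrichments were 21.5 and 14.05 in erythroblasts, and 9.96 and 11.9 in progenitors. Its other peaks lay nearer to Keap1 and Atg4d.

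**Figure D4:**
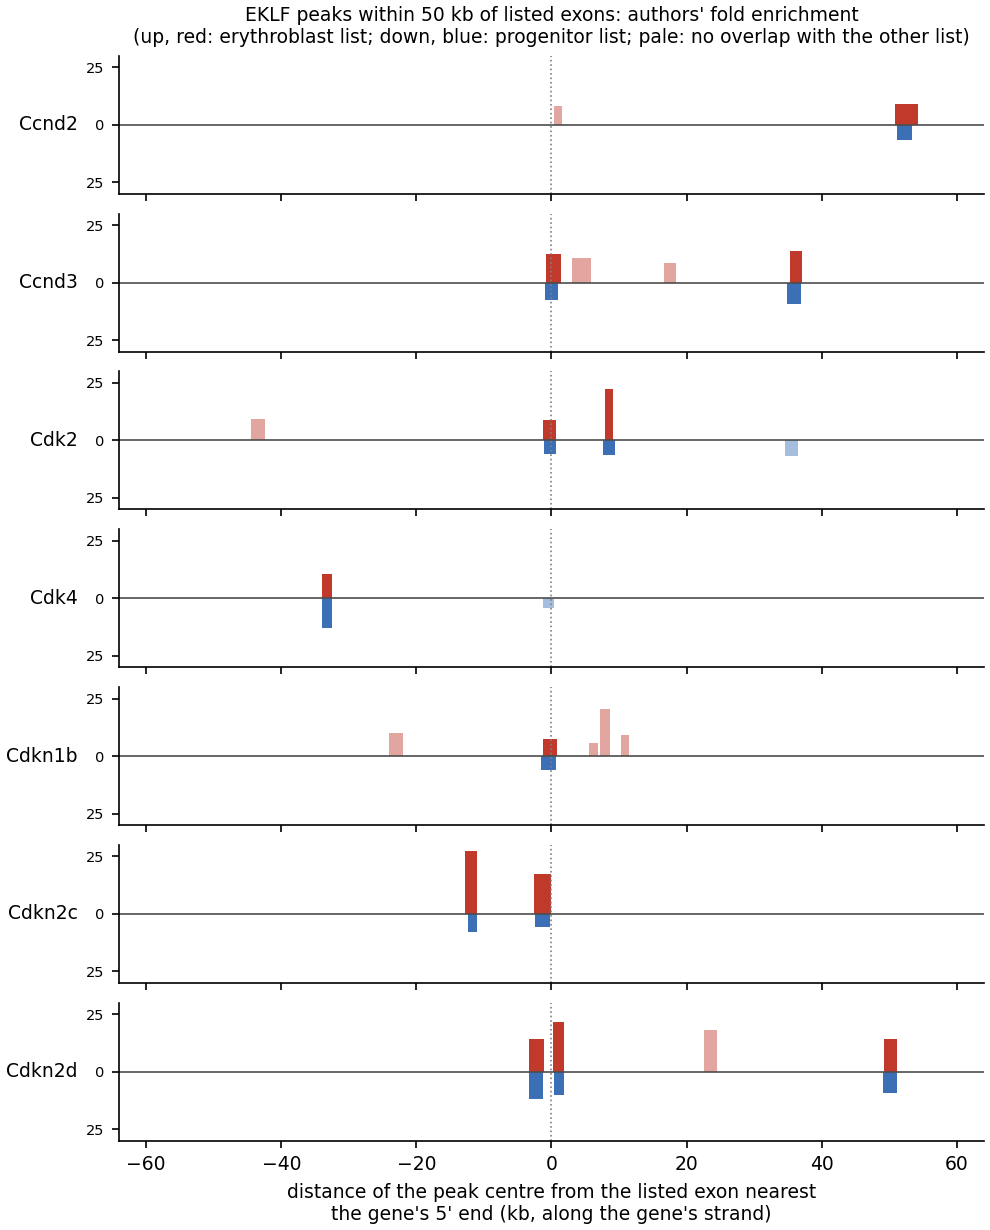
EKLF peaks within 50 kb of the listed exons of each member, by distance of the peak centre from the listed exon nearest the gene's 5' end (horizontal axis, kb along the gene's strand); bars show the authors' fold enrichment, upward and red for the erythroblast list, downward and blue for the progenitor list, and pale where the other list has no overlapping peak. Cdkn1b has 4 pale red bars, both Cdkn2c peaks are in both lists, and Cdk4 has only a pale blue bar at its first listed exon.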

How the data were processed

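The members and the gene lists were chosen with earlier results of these data known. Per the labels' protocols, RNA was read in pairs of 51 bp and input libraries were the background for peak calling. The submitters' processing notes name mm9. The aligner, counter and peak caller were not given in the sources used here. In the expression table, deposited under the name RPKM, all values in both columns (100%, within 0.01) were whole multiples of 1 step per column, 1835 and 2151 steps per unit, so they were read as a coverage signal. Pooling of both libraries in the erythroblast column was not given in the sources used here, and no SD or n is attached. Column 7 of the deposited peak lists was read as a fold enrichment (at least 2.14), and the next column as the authors' -log10 p (at least 5).

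Of 6853 transcripts 6772 matched a symbol in RefSeq (GRCm38.p6). For each gene the transcript with the most listed exons was summed, and genes with at least 1 in either column were kept (5194). Peaks were ranked by -log10 p, then enrichment, and distances run from a peak's edge to an exon's listed position. Named genes were all members, every pathway gene past the 2-fold rule, some of the best covered others and the 3 nearest genes of 4 members, of which 1 is not reported here. Alternatives changed pseudocounts, scaling, gene summaries, filters, windows and overlaps. The steps were tested on simulated data. Python 3.11.15, pandas 2.3.3 and numpy 2.4.6 were used.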

Additional observations from a re-analysis of the deposited data

How the results depend on the processing

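The log2 differences of Ccnd2 (-3.17 to -2.81), Ccnd3 (1.61 to 1.71), Cdkn1b (2.13 to 3.08) and Cdkn2c (1.21 to 1.89) kept their direction and their call under every alternative run. Among the scalings, column totals moved the median of all genes most, by -0.08. The exon median took Cdk2 to -0.66, under the rule, and Cdk4 to -1.02, past it, so the count of members called lower was 2 either way but of other genes; with 1 added to each exon the Cdk4 median was -0.98. With a pseudocount of 5, Cdkn2d had 0.77 and 7 in place of 11 pathway genes were called higher. Peak counts followed the window. Progenitor peaks near the members were 8 within 5 kb and within 10 kb, and 9 with the higher-ranked 50% of the list, in place of 14. Erythroblast peaks were 9 within 5 kb, 11 within 10 kb and 35 within 100 kb, in place of 21. With the erythroblast list (19353 peaks) limited to the length of the progenitor list (7358), they were 14, as many as the progenitor peaks. The higher-ranked 50% of the erythroblast list also gave 14. In both cases 6 members had an erythroblast peak, in place of 7. Fewer peaks enter a smaller window or a shorter list by construction. No paired analysis was possible because each stage has 1 column, and leaving out a replicate was not run for the same reason. The calls of Cdkn2d, Cdkn3, Ccne2, Cdc25b, Skp1 and Fbxw7 are limited by low values, since each rests on 1 exon near the table's minimum in progenitors. Those of Tfdp2 and Ccndbp1 are limited likewise, with progenitor sums of 2.13 and 2.25 over 2 exons each.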
